A study of Homo sapiens with 24 samples.

Results

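The mature miRNAs hsa-miR-105-5p, hsa-miR-105-3p, hsa-miR-767-5p and hsa-miR-767-3p are the arms of 3 hairpins inside GABRA3 on chromosome X, and their levels were followed in OV90 ovarian cancer cells after knockdown of RELA or RELB. The 4 arms were chosen by name from the 2656 miRNAs of the deposited table, with earlier results of these libraries known. Both miR-105 arms are on the study's list of candidates, which was drawn up on the spheroid knockdown comparisons, so those comparisons are described below without a test. The paper also measured its candidates by qRT-PCR. It named other miRNAs, not miR-105, as those whose changes matched the sequencing, and its main text gives no qRT-PCR result for miR-105. All 4 arms were among the 905 miRNAs that passed the filter on low values, a level of 1 or more in CPM (counts scaled to parts per 1000000 of a library) in 4 or more libraries, and the adherent control libraries alone were enough to carry each of them past it.

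Total RNA of OV90, an established line of epithelial ovarian cancer, was made into 24 small RNA libraries, 4 in each of 6 groups. The cells carried an inducible shRNA that was either a negative control (shNeg, called wild type in 1 label field), directed against RELA (shRELA) or directed against RELB (shRELB), and every group, controls included, received doxycycline at 1 µg/ml for 72 h. Adherent cells grew in serum, and spheroids grew without attachment in a defined medium with growth factors, a setting that favours tumor-initiating cells (TICs). All values therefore come from 1 cell line, miRNA libraries do not show how far RELA or RELB was silenced, and nothing states that the replicates were separate cultures, so that p-values measure the spread between these libraries, which may be technical.

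MiRNAs are cut from RNA hairpins, and either arm of a hairpin can be loaded into the silencing complex, where the seed near its 5′ end pairs with target mRNAs. GABRA3 encodes a subunit of the receptor for the transmitter GABA. The hairpins in its intron are known as a cancer-germline type cluster, which is silent in most adult tissues and is switched on together with the host gene in the testis and in some tumors. In other cancers miR-105-5p is known to lower TJP1, a protein of tight junctions, and miR-767-5p is known to lower enzymes of the TET family, which oxidise methylated cytosine. RELA is a subunit of canonical NF-κB and RELB of non-canonical NF-κB.

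The mature arms are shown first because the results compare arms, with the seed, bases 2 to 8, in capitals (RefSeq, GRCh38.p14). The 4 seeds differ from each other.
hsa-miR-105-5p: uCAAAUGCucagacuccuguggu
hsa-miR-105-3p: aCGGAUGUuugagcaugugcua
hsa-miR-767-5p: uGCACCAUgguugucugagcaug
hsa-miR-767-3p: uCUGCUCAuaccccaugguuucu

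The hairpins follow, on the minus strand, with both mature arms in capitals, because they show that the mature miR-105 sequences are the same in both copies.
MIR105-1, chrX:152392219-152392299: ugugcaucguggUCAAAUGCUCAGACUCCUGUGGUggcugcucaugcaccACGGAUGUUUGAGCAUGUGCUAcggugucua
MIR105-2, chrX:152394412-152394492: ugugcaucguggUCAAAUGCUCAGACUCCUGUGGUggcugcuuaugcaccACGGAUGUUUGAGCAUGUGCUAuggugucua
MIR767, chrX:152393421-152393529: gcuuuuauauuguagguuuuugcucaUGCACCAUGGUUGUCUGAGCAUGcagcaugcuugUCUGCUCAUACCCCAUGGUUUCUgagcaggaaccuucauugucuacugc

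MIR105-1 and MIR105-2 were the same at 79 of 81 positions, and the differences, C43U and C73U counted from the 5′ end with the base of MIR105-1 first, lie outside both mature arms. C73U is the base directly after the 3p arm. A count of either miR-105 arm is therefore read here as the output of both copies together. MIR767 lies between them, and the 3 hairpins span 2274 bases. All 3 are in intron 1 of the longest GABRA3 transcript (GENCODE release 44), 56823 bases or more from its start. A shorter transcript of the gene begins 2722 bases beyond the nearest hairpin and does not contain them. The mRNA of GABRA3 was not measured in these libraries.

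The seed of miR-767-5p also occurs elsewhere, in miRNAs whose levels are given below. Among the 2370 mature miRNAs searched, its 7 letters also occur in the 3 miR-29 guide strands, 1 base further in, where they start at base 3 (capitals).
hsa-miR-29a-3p: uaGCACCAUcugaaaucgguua
hsa-miR-29b-3p: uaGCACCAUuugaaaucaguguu
hsa-miR-29c-3p: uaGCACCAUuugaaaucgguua
The seed of miR-105-5p is shared with miR-7853-5p, which had 0 counts in all libraries, and no other mature miRNA had the seed of either 3p arm.

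Library totals ran from 3797175 to 8283549 counts in the 12 adherent libraries and from 959141 to 3580931 in the 12 spheroid libraries. For a miRNA without counts the limit is 3 counts, or as much as 0.790 CPM in adherent and 3.13 CPM in spheroid libraries, and such limits cover counting error only. Spheroid shNeg replicate 1 stood apart, with counts on 432 miRNAs, where the other replicates of its group had counts on 813 to 885. Results that it alone changes are also given with this library left out.

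Both 5p arms were well measured in every library and both 3p arms were scarce. In adherent shNeg cells, miR-767-5p had 363 ± 25.2 CPM (SD, n = 4) and ranked 102nd of the 905 miRNAs. miR-105-5p had 183 ± 9.52 CPM (SD, n = 4) and ranked 141st. The 3p arms had 5.30 ± 0.477 CPM (miR-105-3p) and 5.75 ± 2.48 CPM (miR-767-3p). Over the 6 groups, the 3p arm made up 1.00% to 3.87% of the summed counts of both miR-105 arms and 0.702% to 1.96% of those of both miR-767 arms. Adapters do not join to all miRNAs equally well, so a difference in CPM between arms is not a ratio of molecules.

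**Figure D1:**
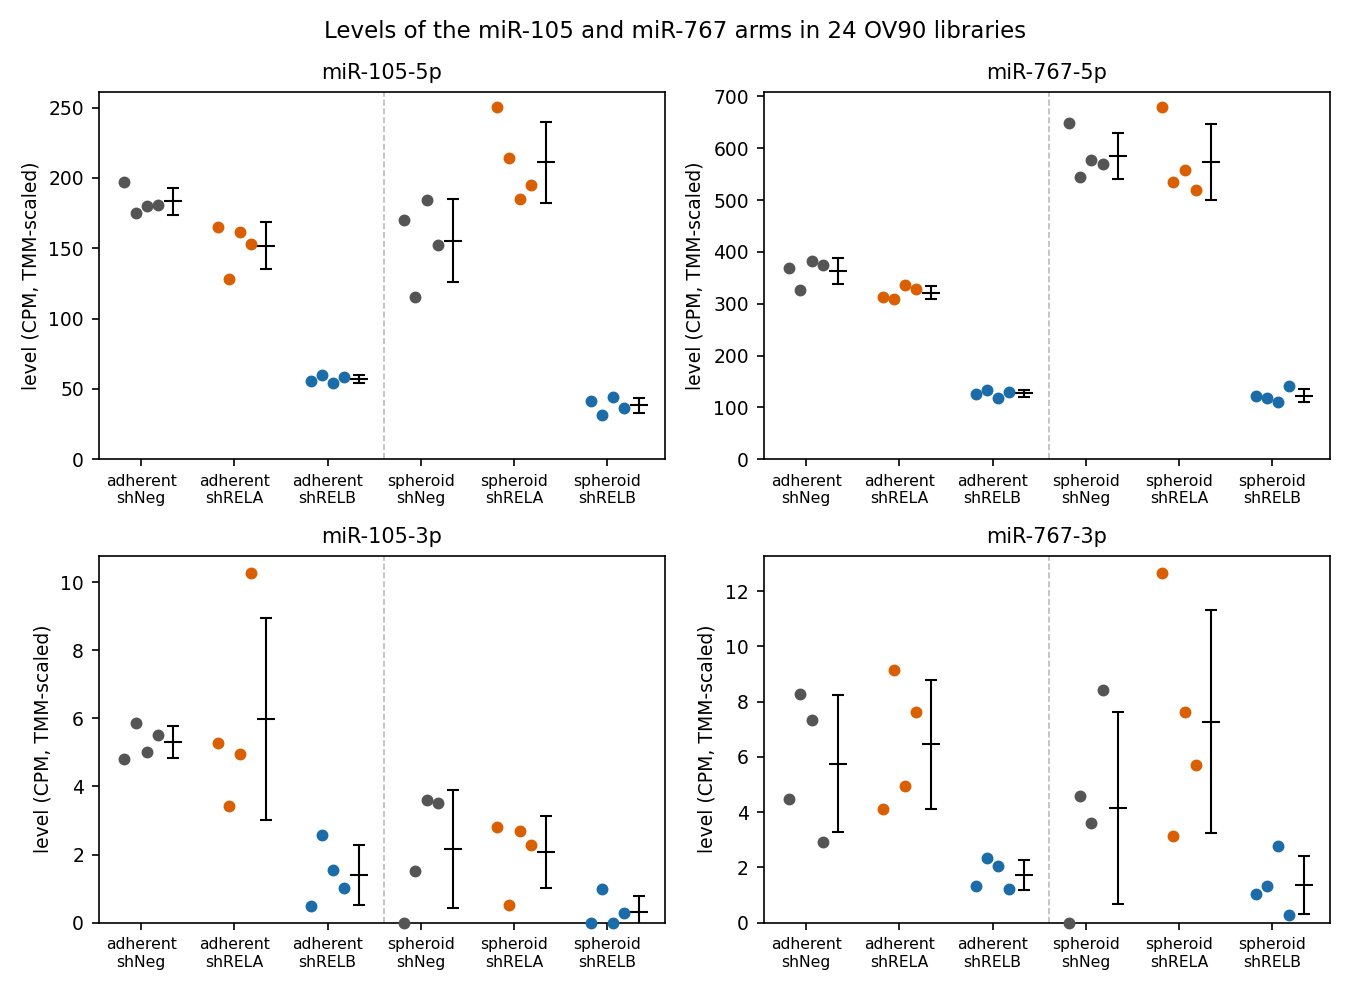
Level of each arm in CPM (TMM-scaled, linear axes from 0) in the 24 libraries, by culture and shRNA, with points for libraries and bars for mean ± SD (n = 4). Both 5p arms are lowest with shRELB in each culture, at 54.5 to 59.9 CPM (miR-105-5p) and 119 to 134 CPM (miR-767-5p) in adherent cells, while both 3p arms stay at or below 12.7 CPM everywhere.

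The first question was what knockdown of RELB did to the cluster in adherent cells. Both 5p arms fell about as far as each other, and both 3p arms were lower in every knockdown library than in every control library. How often groups separate in this way among the other miRNAs that passed the filter was not counted. Separation of levels between groups is therefore description only, here and below. miR-105-5p had 197, 175, 180.2 and 181 CPM in the shNeg libraries, in order of replicate. With shRELB it had 55.4, 59.9, 54.5 and 58.8 CPM. The groups were far apart, and the 4 knockdown libraries differed little among themselves (57.1 ± 2.62 CPM, SD). The log2 fold change was −1.68 with a standard error of 0.19 (3.21-fold lower, 95% interval −2.07 to −1.30, FDR 3.77e-08, edgeR's quasi-likelihood test).

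miR-767-5p had 369.6, 326, 382 and 375 CPM with shNeg. With shRELB it had 126, 134, 119 and 130.5 CPM, again with no overlap. Its log2 fold change was −1.51 with a standard error of 0.16 (2.85-fold lower, 95% interval −1.84 to −1.19, FDR 9.66e-09, edgeR). A call required an FDR under 0.01 together with a change of more than 2-fold, and by that rule 3.54% of the 905 miRNAs were called lower with shRELB in adherent cells. Of the 4 arms, 2 were called lower.

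The 3p arms rest on few counts. miR-105-3p had 29, 22, 28.5 and 32.5 counts in the shNeg libraries and 3, 11, 9 and 5 with shRELB. miR-767-3p had 27, 31, 41 and 17 counts with shNeg and 8, 10, 12 and 6 with shRELB. In CPM no shRELB library reached the lowest control library for either arm. The log2 fold changes were −1.92 (standard error 0.56, FDR 0.0172) and −1.71 (standard error 0.54, FDR 0.0329) in edgeR's quasi-likelihood test, of the same size as those of the 5p arms but not called. Both were called without spheroid shNeg replicate 1, which enters neither group but does enter the shared spread, with log2 fold changes of −1.93 (FDR 0.00165, edgeR) and −1.70 (FDR 0.00339, edgeR). DESeq2 also called both (−1.96 and −1.74), as did a fit of only the groups compared (−2.02 and −1.77). Values of miR-105-3p that were not whole occurred in 5 libraries, and the arm can be read from either of 2 hairpins. How the authors' tool shares such reads was not tested.

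With shRELA in adherent cells, 0 of the 4 arms were called by edgeR, DESeq2 or limma, against 3.76% of the 905 miRNAs called by edgeR in either direction, and 0 had an unadjusted p under 0.05 in any of these tools. miR-105-5p had 165, 128, 161 and 153 CPM, and each of these libraries lay below every shNeg library. The difference was small beside the spread that the fit shares over all groups, with a log2 fold change of −0.27, a standard error of 0.18 and a 95% interval from −0.65 to 0.10 (FDR 0.472, edgeR). miR-767-5p had 313, 309, 337 and 327 CPM, which overlapped the controls, and a log2 fold change of −0.18 (standard error 0.16, 95% interval −0.49 to 0.14). These intervals leave room for a modest decrease of either arm and do not reach the fold change threshold.

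The 3p arms had log2 fold changes of 0.18 each with shRELA, with standard errors of 0.50 (miR-105-3p) and 0.49 (miR-767-3p). miR-105-3p was spread from 17.5 to 62.5 counts over the 4 shRELA libraries.

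The knockdowns were then compared with each other, which needs no control library. All 4 arms were lower with shRELB than with shRELA in adherent cells, and all 4 were called, against 4.31% of the 905 miRNAs called lower. The log2 fold change was −1.41 for miR-105-5p (standard error 0.19, FDR 5.13e-07, edgeR). For miR-767-5p it was −1.34 (standard error 0.16, FDR 7.43e-08, edgeR). Both calls held under all 17 alternative settings run.

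The same difference in the 3p arms was larger in size but less secure. It was −2.10 for miR-105-3p (standard error 0.55, FDR 0.00535, edgeR) and −1.89 for miR-767-3p (standard error 0.54, edgeR), where the FDR of 0.009998 was just inside the threshold. The call on miR-105-3p was lost without adherent shRELA replicate 1 (−2.16) or 4 (−1.71) and without adherent shRELB replicate 1 (−1.81), 3 (−2.17) or 4 (−1.98). The call on miR-767-3p was lost when any 1 of the 8 libraries was left out (−2.05 to −1.67).

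**Figure D2:**
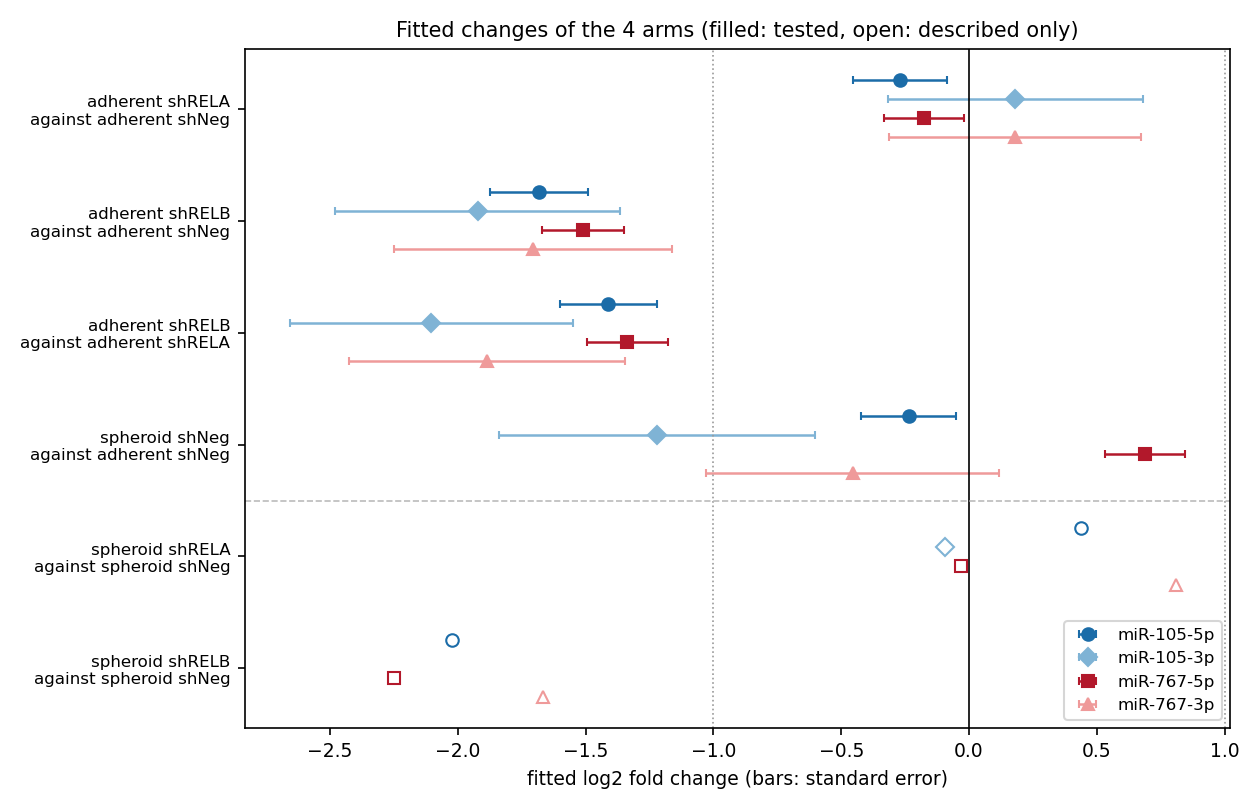
Fitted log2 fold change of each arm in 6 comparisons (miR-105-3p with spheroid shRELB, at 3 counts or fewer, is left out), with bars for the standard error where a test was made (filled symbols) and open symbols where values are described only; dotted lines mark a fold change of 2. All 4 arms lie left of −1 with shRELB in adherent cells (−1.92 to −1.51), whereas with shRELA they lie between −0.27 and 0.18.

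The next question was whether the cluster differed between cultures in control cells. Of the 905 miRNAs, 42.2% were called in this comparison, and their median log2 fold change was −0.26, so changes are best read against that shift. The spheroid shNeg libraries used here are also the controls of the described spheroid comparisons. miR-767-5p had 649, 545, 578 and 569 CPM in spheroids, all above the highest adherent value of 382 CPM. Its log2 fold change was 0.69 with a standard error of 0.16 (1.61-fold higher, FDR 3.66e-04, edgeR), which passed the FDR but not the fold change threshold. This result depended on the processing. It passed both thresholds with library totals in place of TMM (1.12, where the median of all miRNAs was 0.17) and when the fit was limited to miRNAs averaging 10 CPM or more (1.08), but it missed the FDR threshold without a filter (0.45, FDR 0.114, edgeR) and in a fit of only the groups compared (0.57, FDR 0.0215, edgeR).

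miR-105-5p had 170.2, 115, 184 and 152 CPM in spheroid shNeg libraries and overlapped the adherent ones. Its log2 fold change was −0.24 (standard error 0.19, FDR 0.280, edgeR) and turned positive with library totals (0.19) and with the filter at a mean of 10 CPM (0.15), so no direction can be given. The 3p arms had log2 fold changes of −1.22 (miR-105-3p, standard error 0.62, FDR 0.0882, edgeR) and −0.46 (miR-767-3p, standard error 0.57, FDR 0.508, edgeR), neither of which was called. Spheroid shNeg replicate 1 had 0 counts of both 3p arms, where up to 3 counts are allowed.

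The 5p arms of neighbouring hairpins can be compared within a library, which removes the scaling. The ratio of miR-767-5p to miR-105-5p counts was 1.88, 1.86, 2.12 and 2.07 in the adherent shNeg libraries. In the spheroid shNeg libraries it was 3.81, 4.72, 3.13 and 3.73, so the groups did not overlap. The ratio was 1.92-fold higher in spheroids (log2 difference 0.94 ± 0.13, SE), with a 2-sided exact permutation p of 0.0286, the smallest that 4 against 4 libraries allow, and 0.0429 after adjustment over 3 tests.

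In adherent cells the ratio moved little. It was 2.27, 2.24, 2.18 and 2.22 with shRELB, above every control library but only 1.13-fold higher (log2 difference 0.17 ± 0.049, SE, exact permutation p = 0.0286, adjusted 0.0429). With shRELA it was 1.07-fold higher and overlapped the controls (exact permutation p = 0.2). The ratio of the miR-105 arms was not tested, because miR-105-3p had under 10 counts in 15 of the 24 libraries.

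**Figure D3:**
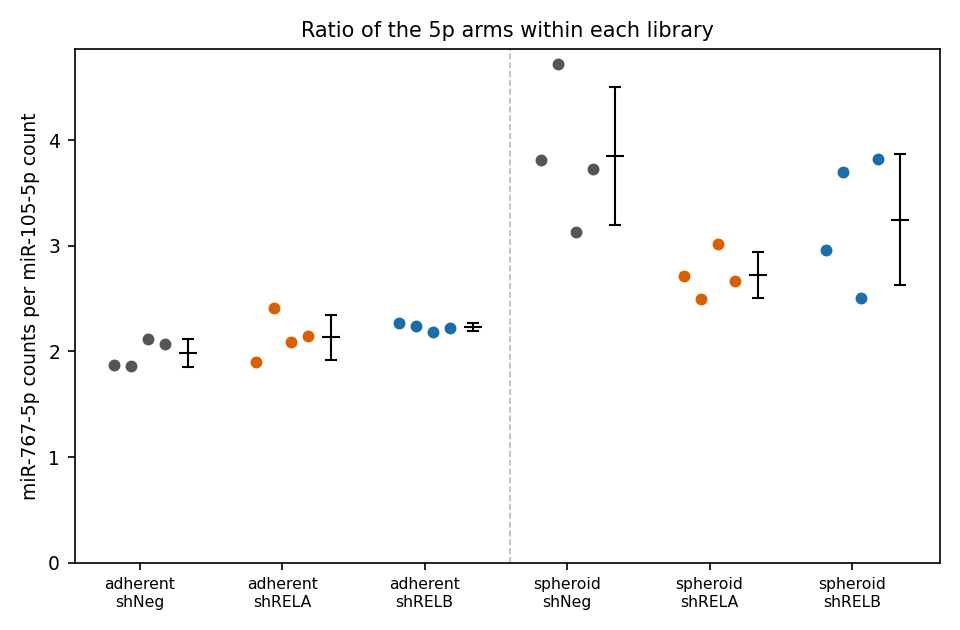
Counts of miR-767-5p per count of miR-105-5p in each library (0.5 added to both), by group, with mean ± SD (n = 4). The adherent libraries lie between 1.86 and 2.41, and all 12 spheroid libraries lie above them, at 2.49 to 4.72.

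In spheroids, shRELB left both 5p arms far below the controls. miR-105-5p had 41.1, 31.6, 44.2 and 36.7 CPM, each below the lowest shNeg library at 115 CPM, with a fitted log2 fold change of −2.02 (4.06-fold lower). miR-767-5p had 122, 117, 111 and 141 CPM against 545 to 649 CPM with shNeg, a fitted log2 fold change of −2.25 (4.76-fold lower). No shRELB library of either arm came near a control library, and both arms ended at levels similar to those of adherent shRELB cells or lower.

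With shRELA in spheroids, miR-105-5p had 250.2, 214, 185 and 195 CPM, each above the highest shNeg library at 184 CPM, the nearest pair being less than 1 CPM apart. The fitted log2 fold change was 0.44, and with library totals in place of TMM it was 0.052. miR-767-5p had 679.9, 535, 559 and 520.2 CPM with shRELA and overlapped the controls, with a fitted log2 fold change of −0.03 and, with library totals, of −0.42. The sizes of both therefore depended on the scaling. The ratio of miR-767-5p to miR-105-5p was 2.72, 2.49, 3.02 and 2.66 with shRELA, each below the lowest spheroid shNeg library, and from 2.51 to 3.82 with shRELB.

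The 3p arms were close to the detection limit in spheroids. miR-105-3p had 0, 2, 7 and 5 counts with shNeg, 6, 1, 6 and 6 with shRELA and 0, 3, 0 and 1 with shRELB. miR-767-3p had 0, 6, 7 and 12 counts with shNeg, 27, 6, 17 and 15 with shRELA and 2, 4, 6 and 1 with shRELB. In CPM the knockdown and control libraries overlapped for both arms, and the fitted fold change of miR-105-3p with shRELB, where every library had at most 3 counts, is no estimate of size and is left out of the plot of fitted changes.

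Ordered by mean level over the 6 groups, miR-105-5p ran from spheroid shRELA (211 ± 28.7 CPM, SD) through adherent shNeg (183 ± 9.52), spheroid shNeg (155 ± 29.8) and adherent shRELA (152 ± 16.6) to adherent shRELB (57.1 ± 2.62) and spheroid shRELB (38.4 ± 5.48). Neighbours among the first 4 overlapped, and the last 2 were separate from them and from each other. miR-767-5p was highest in spheroid shNeg (585 ± 44.7 CPM, SD) and spheroid shRELA (573 ± 72.8), which overlapped, followed by adherent shNeg (363 ± 25.2) and adherent shRELA (322 ± 12.99), which overlapped as well. Adherent shRELB (127 ± 6.72) and spheroid shRELB (123 ± 12.65) were lowest and overlapped each other.

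The study's qRT-PCR reference, miR-30e-5p, served as a second reference within each adherent library. The mean ratio of miR-105-5p to miR-30e-5p was 0.148 ± 0.0140 with shNeg, 0.0966 ± 0.0346 with shRELA and 0.0502 ± 0.00432 with shRELB (SD, n = 4). The mean ratio of miR-767-5p to miR-30e-5p was 0.293 ± 0.0326, 0.206 ± 0.0761 and 0.112 ± 0.00901 in the same order. The level of miR-30e-5p was itself spread with shRELA, at 1728 ± 641 CPM against 1246 ± 69.0 with shNeg and 1143 ± 74.0 with shRELB (SD, n = 4). Its own log2 difference with shRELA was 0.47 (FDR 0.166, edgeR), so the lower ratios with shRELA cannot be read as a change of the arms. Between cultures this reference cannot serve, since miR-30e-5p itself was lower in spheroids, with a log2 fold change of −1.69 (FDR 1.06e-08, edgeR).

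The miRNAs with the most similar pattern were sought among 333 others averaging 10 CPM or more, by the root mean square of the difference between the 6 centred group means of log2(CPM + 1). For miR-105-5p these were miR-378a-5p (0.385), miR-204-5p (0.519), miR-378c (0.532), miR-378a-3p (0.534) and miR-5100 (0.560). For miR-767-5p these were miR-378a-5p (0.564), miR-5100 (0.593), miR-205-5p (0.623), miR-642b-5p (0.634) and miR-204-5p (0.640). The difference between the 5p arms themselves was 0.336, smaller than that of either arm to any of the 333. All 6 groups enter this measure, including the spheroid knockdowns on which the study's candidates were chosen, so it is description only.

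Other miRNAs of chromosome X were set beside the cluster, mostly in adherent cells. The nearest tested arms outside the cluster come from MIR224 and MIR452 in GABRE and lie 432520 bases or more away. They changed more with RELA knockdown than with RELB knockdown. miR-224-5p fell by 2.99 on the log2 scale with shRELA (FDR 8.17e-13, edgeR), and with shRELB it fell by 1.78 (FDR 4.56e-08, edgeR). miR-452-5p fell by 3.32 with shRELA (FDR 7.75e-07, edgeR) and had −1.32 with shRELB (FDR 0.0229, edgeR), which was not called. Directly compared, both were higher with shRELB than with shRELA, by 1.21 (miR-224-5p) and 1.997 (miR-452-5p), whereas the 4 arms of the GABRA3 hairpins were lower. In spheroids, described without a test, miR-224-5p had fitted log2 fold changes of −3.03 with shRELA and −2.61 with shRELB. miR-452-5p had −4.04 and −1.97, averaging 3.88 CPM or less in both knockdown groups. A fall with shRELB was thus not particular to the GABRA3 arms.

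Another germline-type group, the miR-506 to miR-514 and miR-888 to miR-892 hairpins of band Xq27, had 11 of 30 listed arms tested. With shRELB in adherent cells 0 of the 11 were called by edgeR, DESeq2 or limma, and 1 (2 with limma) had an unadjusted p under 0.05. These changes had a median log2 fold change of 0.35 (0.04 over all 905 miRNAs). With shRELA, 2 of the 11 fell, miR-509-3p (−1.15, FDR 0.00247) and miR-891a-5p (−1.84, FDR 3.76e-05, edgeR), where 2.65% of all 905 were called lower, and limma called 1 of the 11. The median was −1.39 (0.09 over all), but apart from miR-509-3p (2.82 CPM) and miR-891a-5p (3.27 CPM) the arms averaged under 1 CPM with shRELA. That median therefore rests mostly on values near the detection limit. Between cultures 3 of the 11 were called higher in spheroid shNeg cells (2 by limma), a share near the 21.3% of all 905 that were called higher. Among them, miR-513c-5p averaged 0.397 to 0.766 CPM in the adherent groups and passed the filter through spheroid libraries, where it was higher. miR-509-3p, also called, rose from 6.37 ± 1.195 to 174 ± 29.3 CPM (SD, n = 4). In spheroids, described without a test, it had 184 ± 22.2 CPM with shRELA and 47.5 ± 8.75 CPM with shRELB. Its fitted log2 fold change with spheroid shRELB was −1.87, where the 11 arms had a median of 0.74 (0.16 over all).

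Of all 67 tested miRNAs on chromosome X outside the cluster, 2 were called lower with shRELB in adherent cells, miR-223-3p (−3.85) and miR-224-5p (−1.78), and 0 were called higher by edgeR, DESeq2 or limma (6, 8 and 6 at an unadjusted p under 0.05). The 2 called lower are about the share of all 905 miRNAs, 3.54%. With shRELA, 6 were called lower (2.65% of all 905) and 1 higher (10 of all 905 miRNAs). The largest falls were those of miR-504-5p (−3.55) and miR-452-5p (−3.32). With shRELA these averaged 0.664 CPM (miR-504-5p) and 2.99 CPM (miR-452-5p), so the size of the first rests on values near the detection limit.

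**Figure D4:**
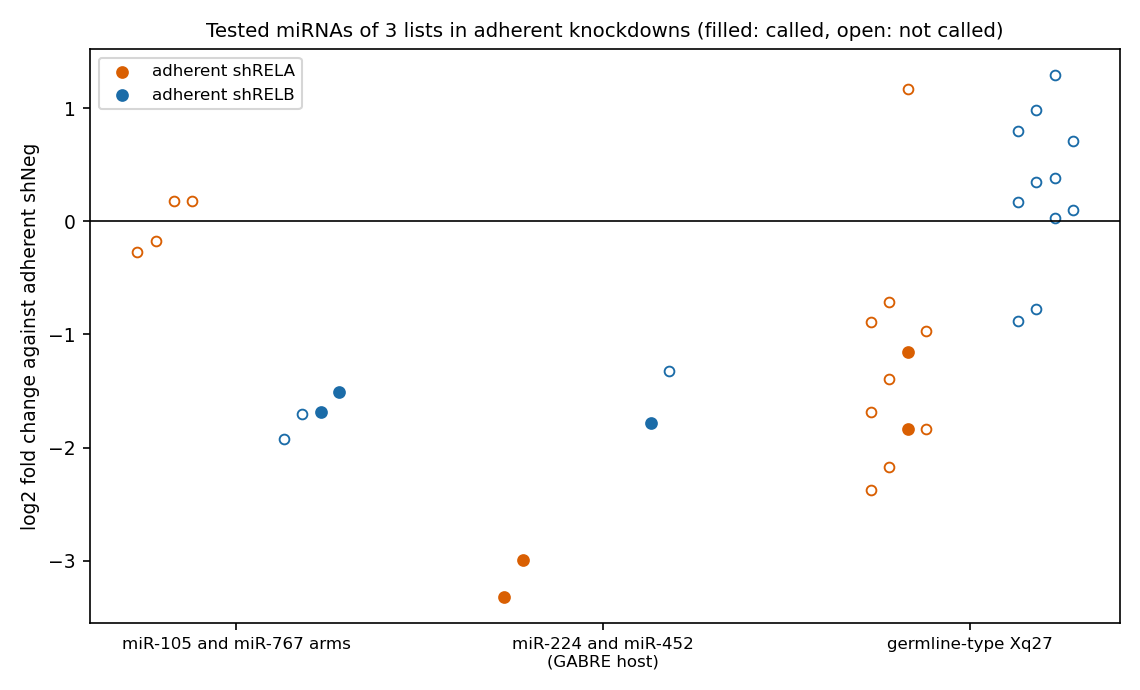
Log2 fold change against adherent shNeg of the tested miRNAs of 3 lists from chromosome X, with shRELA (orange) and shRELB (blue), each point a miRNA and filled where called. The GABRA3 arms are near 0 with shRELA (−0.27 to 0.18) and at −1.92 to −1.51 with shRELB, while the GABRE arms are lower with shRELA (−3.32 and −2.99) than with shRELB (−1.32 and −1.78).

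Of the miR-29 strands that contain the letters of the miR-767-5p seed, miR-29a-3p had 21934 ± 886 CPM (SD, n = 4) in adherent shNeg cells, miR-29b-3p 317 ± 91.2 CPM and miR-29c-3p 299 ± 86.2 CPM, the last 2 near the level of miR-767-5p. With shRELB in adherent cells, miR-29a-3p fell by 1.197 on the log2 scale (FDR 1.08e-05, edgeR), and miR-29b-3p fell by 1.182 (FDR 0.00331, edgeR). miR-29c-3p had −0.78 (FDR 0.0580, edgeR) and was not called. With shRELA all 3 had log2 fold changes of 0.01 to 0.02. The strands did not keep this pattern in spheroids, described without a test. There miR-29a-3p averaged 11614 CPM with shNeg, 7812 with shRELA and 4521 with shRELB. In the same order, miR-29b-3p had 232 ± 59.7, 157 ± 29.8 and 208 ± 80.2 CPM (SD, n = 4). miR-29c-3p had 147 ± 54.6, 48.8 ± 6.58 and 83.0 ± 12.2 CPM, and so was lowest with shRELA. Between shNeg cultures the 3 strands had negative log2 fold changes, where miR-767-5p had 0.69 and the median of all 905 miRNAs was −0.26. For miR-29b-3p (standard error 0.29) no direction can be given. miR-29c-3p was called lower in spheroids (−1.03, FDR 0.00234, edgeR). miR-29a-3p had −0.92 (FDR 8.36e-05, edgeR) and miR-29b-3p −0.45 (FDR 0.173, edgeR), neither of which was called.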

How the data were processed

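The authors made libraries from total RNA with the QIAseq miRNA kit, which adds a unique molecular index to each molecule, removed adapters (Cutadapt) and matched the reads to miRBase for GRCh38 (miRDeep2). Whether index duplicates were collapsed is not given in the sources used here. The deposited table was read as estimated counts of mature miRNAs without scaling to depth: its title and the methods speak of CPM, but column sums differed and 3.04% of the non-zero values were not whole. The latter were rounded. Of 2656 miRNAs, 843 had no count.

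All 24 libraries were fitted together with edgeR 4.0.16 (quasi-likelihood test, TMM, 6 groups as the only term, R 4.3.3), with Benjamini-Hochberg FDRs over the 905 miRNAs that reached 1 CPM in 4 or more libraries. Calls followed the authors' thresholds, an FDR under 0.01 with a change of more than 2-fold. Standard errors are log2 fold changes over the square root of F, and 95% intervals use the total degrees of freedom. CPM are TMM-scaled. Within-library ratios had 0.5 counts added and were tested with 2-sided exact permutation tests. Alternatives were limma 3.58.1, DESeq2 1.42.0, other scalings and filters, a replicate block, only the groups compared, and each library left out. The code was tested on simulated data. No 2 libraries of a group agreed within sampling noise (chi-square per degree of freedom 8.47 to 357.9 over 36 pairs), so none was taken as a copy of another. Such a check cannot show that libraries came from separate cultures. Same-numbered libraries did not deviate together (correlations −0.24 to 0.06), so numbers were not taken as pairs.

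Named were the 4 arms, the 5 miRNAs nearest in pattern to each arm with a mean of at least 10 CPM, detected members of the GABRE and Xq27 lists, the 2 largest called changes elsewhere on chromosome X, and miR-30e-5p. The miR-29 strands were added for their sequence. The arms and lists were chosen with earlier results of these data known. Positions and sequences came from RefSeq (GRCh38.p14) and transcripts from GENCODE release 44.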

Additional observations from a re-analysis of the deposited data

Results flagged for a closer look

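For miR-105-5p, the shRELA libraries lay on opposite sides of their controls in the 2 cultures, although the adherent change was not called (FDR 0.472, edgeR). Every adherent shRELA library lay below the mean of its shNeg libraries and every spheroid shRELA library lay above, with fitted log2 fold changes of −0.27 and 0.44, a difference of 0.71. The difference was not tested, since the spheroid comparison was used to choose the miRNA. With library totals in place of TMM, the spheroid value was 0.052.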

How the results depend on the processing

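The calls of both 5p arms as lower with adherent shRELB held in all 17 alternatives, against shNeg (−1.75 to −1.56 for miR-105-5p, −1.58 to −1.38 for miR-767-5p) and against shRELA (−1.48 to −1.18 and −1.41 to −1.11). The calls of the 3p arms, which had few counts, depended on the setting. With adherent shRELB against shNeg they gained a call with DESeq2 (−1.96 for miR-105-3p, −1.74 for miR-767-3p) and with only the groups compared (−2.02, −1.77), and miR-105-3p also with no filter (−1.98). Leaving out 1 library gave −2.34 to −1.63 and −1.93 to −1.49, both called only without spheroid shNeg replicate 1. Against shRELA both lost their call with library totals (−1.83, −1.65), with limma (−1.52, −1.42) and with a replicate block (−2.10, −1.90), and leaving out 1 library gave −2.53 to −1.71 and −2.05 to −1.67. The replicate block changed no other call of the 4 arms. Between shNeg cultures, miR-767-5p was called with a mean of at least 10 CPM (1.08) and with library totals (1.12), its FDR passed no longer without a filter (0.45, FDR 0.114, edgeR) or with only the groups compared (0.57, FDR 0.0215, edgeR), and miR-105-5p changed sign with the first pair of settings. In spheroids, library totals moved the shRELA values to 0.052 (miR-105-5p) and −0.42 (miR-767-5p) and the shRELB values to −2.28 and −2.52, and median-ratio size factors moved those of miR-767-5p to −0.19 and −2.39. Leaving out 1 library gave −2.46 to −2.20 for miR-767-5p and −3.81 to −2.10 for miR-105-3p with spheroid shRELB, the latter on at most 3 counts a library and so no estimate of size. The log2 difference in the ratio of the 5p arms was 0.14 to 0.20 (adherent shRELB) and 0.84 to 1.04 (culture) without 1 library, where an exact permutation test of 3 against 4 libraries cannot pass the threshold. Fitting only the groups compared called 57, 124 and 163 miRNAs in the adherent comparisons, in place of 34 (shRELA), 64 (shRELB) and 99 (shRELB against shRELA), and a mean of at least 10 CPM called 204 between cultures in place of 382. The share of calls that were higher depended on scaling, at 29.4%, 50%, 60.6% and 50.5% with TMM and 17.6%, 62.2%, 78.3% and 61.8% with library totals, in the order adherent shRELA, shRELB, shRELB against shRELA and culture. A mean of at least 10 CPM left neither 3p arm to test. The causes were not tested.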
